A study of Mus musculus with 3 samples.

Results

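The genes described here encode guanylate-binding proteins (GBPs) and immunity-related GTPases (IRGs), interferon-inducible enzymes that defend the inside of a cell. They were chosen by symbol from a given list of 10, Gbp2, Gbp3, Gbp5, Gbp7, Gbp9, Irgm1, Irgm2, Igtp, Iigp1 and Tgtp1, and all 10 were found among the 55536 annotated genes. RNA depleted of ribosomal RNA was measured in the cytosolic fraction of primary C57BL/6J mouse macrophages grown from bone marrow. All cells had received 100 ng/ml of lipid A, the Toll-like receptor 4 ligand of bacterial lipopolysaccharide, for 90 min. The samples form 1 group of 3 biological replicates made from 1 µg of RNA each, which share 1 donor identifier and have no recorded age or sex. Untreated cells were not analysed here, so no level below shows induction, and each gene was compared with other genes within a library and between the 3 libraries.

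GBPs are large dynamin-related GTPases that assemble on bacteria and on the vacuoles of parasites, break these membranes and bring lipopolysaccharide to caspase-11. IRGs are smaller GTPases of 2 kinds. The regulatory kind (Irgm1, Irgm2 and Igtp, also called Irgm3) sits on the membranes of the host and holds the effector kind inactive there, while effectors such as Iigp1 (Irga6) and Tgtp1 (Irgb6) load onto vacuoles that lack the regulators. In macrophages Toll-like receptor 4 switches on interferon-beta, and interferon signals reach these genes through transcription factors, interferon regulatory factors among them, that bind interferon response elements and gamma-activated sites in promoters.

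The promoters are shown first because they are the sequence that these factors read, and because 3 of them share 1 arrangement of motifs. RefSeq promoters of build GRCm38.p6 (mm10), from 250 bases before the start to 50 after it, matched 8 of the 10 genes, all but Gbp9 and Iigp1. The windows below run 5′ to 3′ on the strand of the gene. Capitals mark matches, on either strand, to the interferon response element core GAAANNGAA, the gamma-activated site TTCNNNGAA and the NF-kappaB consensus. Tgtp2, a near copy of Tgtp1 that is not among the 10, is shown for comparison.
Gbp5 (chr3:142496747-142496796, plus strand): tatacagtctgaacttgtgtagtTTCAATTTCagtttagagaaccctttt
Gbp5, nearer the start (chr3:142496852-142496901, plus strand): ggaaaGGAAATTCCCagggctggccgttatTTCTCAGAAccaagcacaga
Gbp2 (chr3:142620582-142620631, plus strand): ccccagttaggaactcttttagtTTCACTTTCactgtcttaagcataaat
Gbp3 (chr3:142559980-142560029, plus strand): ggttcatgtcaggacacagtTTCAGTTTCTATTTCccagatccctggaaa
Gbp7 (chr3:142530220-142530310, plus strand): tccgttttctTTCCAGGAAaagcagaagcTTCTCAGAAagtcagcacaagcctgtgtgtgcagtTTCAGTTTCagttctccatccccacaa
Irgm1 (chr11:48871421-48871470, minus strand): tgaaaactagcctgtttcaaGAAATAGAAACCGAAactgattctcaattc
Irgm2 (chr11:58214890-58214939, plus strand): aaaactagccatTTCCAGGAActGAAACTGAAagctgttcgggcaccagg
Igtp (chr11:58199499-58199548, plus strand): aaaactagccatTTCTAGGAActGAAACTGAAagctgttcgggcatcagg
Tgtp1 (chr11:48992297-48992346, minus strand): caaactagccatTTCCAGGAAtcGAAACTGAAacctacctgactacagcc
Tgtp2 (chr11:49064256-49064305, minus strand): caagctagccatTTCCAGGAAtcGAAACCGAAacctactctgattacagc

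All 8 promoters held the interferon response element core, against 9.76% of 27025 genes with a RefSeq promoter. Its matches began between 24 bases (Irgm1) and 164 bases (Gbp5) before the start. Gbp3 and Irgm1 each held a pair of overlapping matches, and a second RefSeq start of Gbp3 held none. The gamma-activated site was found in 5 of the 8 (Gbp5, Gbp7, Irgm2, Igtp and Tgtp1), against 9.55% of all genes. In Irgm2, Igtp and Tgtp1 it began 11 bases before the response element, and the same spacing stood in Tgtp2 and in another IRG gene, Gm12185. Of 9 GBP and IRG genes outside the 10 that had a RefSeq promoter, 5 held the response element core and 3 the gamma-activated site. Ifi47, an IRG gene, was among those with neither. The NF-kappaB consensus was found in Gbp5 alone among the 8, beginning 77 bases before the start, against 5.14% of all genes. These promoters are not independent sequences. Over the best local alignment, 93.6% of 264 aligned bases were identical between Irgm2 and Igtp and 91.9% of 161 between Tgtp1 and Tgtp2. A match describes letters only and no binding was measured.

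**Figure D1:**
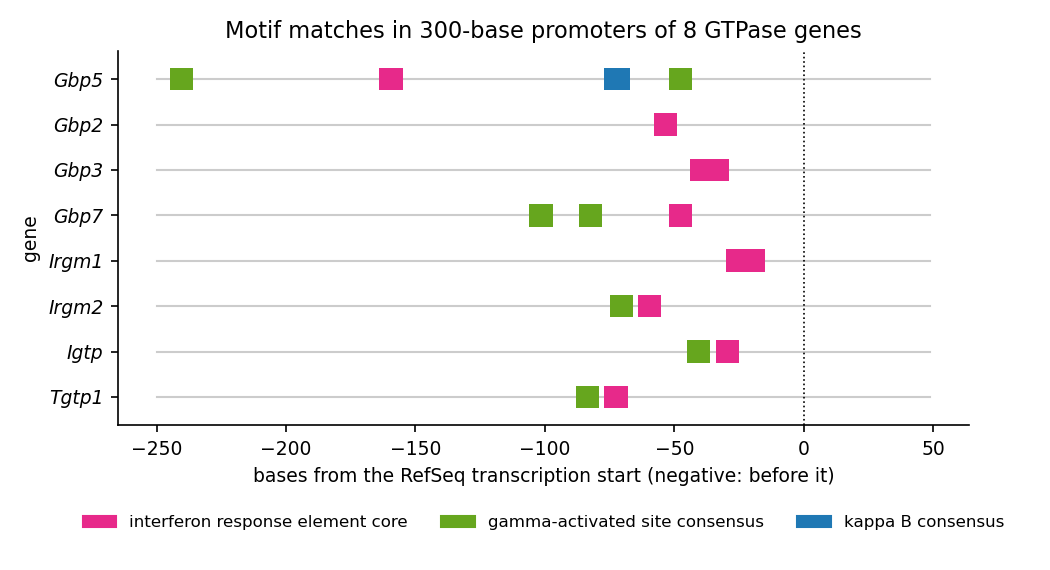
Positions of motif matches in the promoters of 8 GTPase genes, with the distance in bases from the RefSeq start on the horizontal axis and 1 gene per row. Pink, green and blue boxes are the interferon response element core, the gamma-activated site and the NF-kappaB consensus; all 8 rows hold a pink box, and in Irgm2, Igtp and Tgtp1 a green box lies just before it.

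The libraries held 33821479, 47843161 and 59390843 expected counts in replicates 1, 2 and 3, which are estimated reads. The 10 genes took 47000, 48433 and 47704 of them, or 0.140%, 0.101% and 0.0804% of counts on annotated genes. The Wilson 95% intervals of these shares, 0.138 to 0.141%, 0.101 to 0.102% and 0.0797 to 0.0811%, cover counting error only. All 7 macrophage markers lay above the reference defined below (summed TPM 6670, 4822 and 4666). Markers of T and NK cells summed to 0, 0.02 and 0.03 TPM, of B cells to 0.63, 0.37 and 0.70 TPM, of fibroblasts to 0.10, 0.06 and 0.08 TPM and of dendritic cells to 1.13, 0.94 and 1.43 TPM. Endothelial markers summed to 2.58, 2.31 and 2.26 TPM, mostly Kdr. Neutrophil markers summed to 38.6, 21.3 and 36.2 TPM, nearly all from S100a8 and S100a9, with the defining marker Ly6g at 0.

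Levels are given in TPM (the length-corrected share of a library's transcripts) from the first of 2 deposited quantifications. A gene was called above or below the reference, the median of the 8747 protein-coding genes that averaged 1 TPM or more, where it differed by at least 1 log2 unit with an adjusted p under 0.05 (limma, Benjamini-Hochberg adjustment over all genes). The reference was 7.38, 6.07 and 6.21 TPM in replicates 1, 2 and 3. By this rule 5 of the 10 GTPase genes were above it, beside 20.5% of 13344 genes tested, and 1 was below it, beside 50.7% of the genes tested. The other 4 lay within 1 log2 unit. The median level of the 10 genes was 0.82 log2 units above the reference, and that of all genes tested was -1.06. In these bulk samples fewer cells that express a gene and less RNA per cell cannot be told apart.

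**Figure D2:**
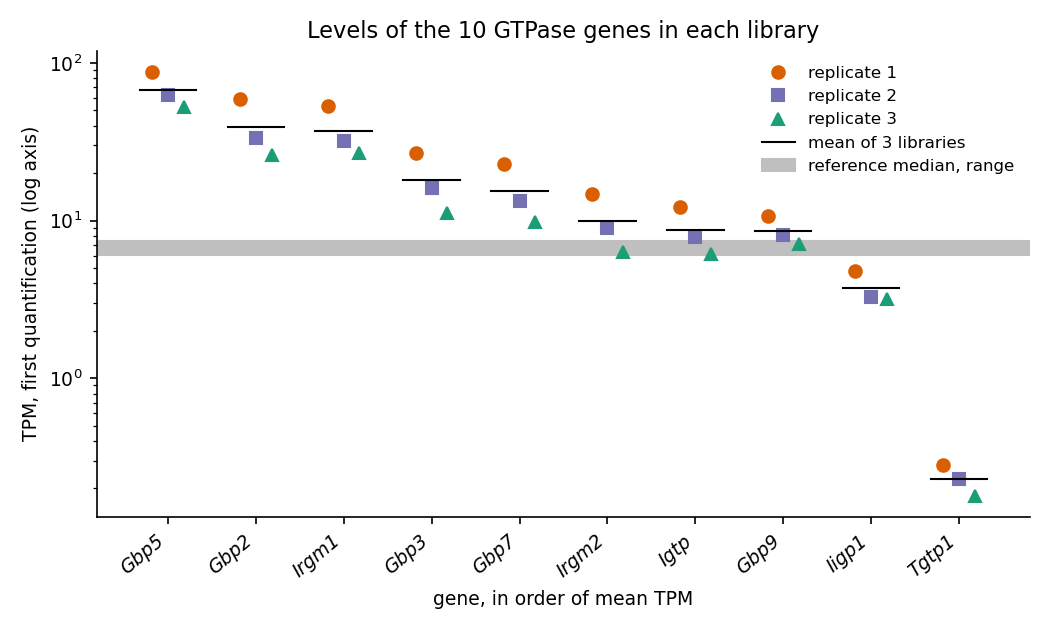
TPM of the 10 genes in each library, on a log axis, in order of their mean; points are libraries, bars are means and the grey band is the range of the reference median. Gbp5 leads at 67.6 TPM on average, Tgtp1 is last at 0.230 TPM, and replicate 1 is the highest point of every gene.

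Among the GBPs, Gbp5, whose product takes part in NLRP3 inflammasome assembly and carries a C-terminal lipid anchor, had the highest level, 87.7, 62.3 and 52.7 TPM in replicates 1, 2 and 3. Its mean of 67.6 ± 18.1 TPM (SD, n = 3) was 9.98-fold the reference (log2 3.32 ± 0.25; limma adjusted p = 1.51e-05) and 566th among protein-coding genes. Gbp2, another lipid-anchored GBP that is recruited to bacteria and parasite vacuoles, had 58.7, 33.6 and 26.1 TPM. Every library placed it above the reference, 5.63-fold on average (log2 2.49 ± 0.46; limma adjusted p = 0.000136).

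Gbp3 had 26.7, 16.0 and 11.2 TPM, and its neighbour Gbp7, which acts in defence against parasites and bacteria, had 22.9, 13.3 and 9.84 TPM. Both were above the reference in each library, Gbp3 by 2.56-fold (log2 1.36 ± 0.50; limma adjusted p = 0.00191) and Gbp7 by 2.19-fold (log2 1.13 ± 0.48; limma adjusted p = 0.00342). Both calls depend on the setting. Against a reference of 5 TPM or more, Gbp3 was at 0.33 (limma adjusted p = 0.161) and Gbp7 at 0.10 (limma adjusted p = 0.618) log2 units. Gbp7 was at 0.86 without replicate 1, and in the second quantification Gbp3 was at 0.95 and Gbp7 at 0.77. Gbp9 had 10.7, 8.06 and 7.13 TPM, the smallest spread relative to its level among the GBPs. It stood 0.38 ± 0.17 log2 units above the reference (limma adjusted p = 0.00724), under the limit for a call.

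Among the IRGs the regulator Irgm1, which also acts in autophagy and mitochondrial quality control, had the highest level, 53.0, 31.8 and 26.8 TPM. It was 5.39-fold the reference (log2 2.43 ± 0.37; limma adjusted p = 7.02e-05), close to Gbp2. The other regulators were lower than Irgm1 in every library. Irgm2, which in mice restrains caspase-11 activation, had 14.6, 8.98 and 6.29 TPM, and Igtp had 12.2, 7.83 and 6.11 TPM. Irgm2 lay above the reference in all 3 libraries and Igtp in 2, and neither passed the test (log2 0.52 ± 0.48 and 0.35 ± 0.37; limma adjusted p = 0.0513 and 0.0763).

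Both effectors among the 10 were lower than every regulator. This does not extend to all IRGs, since Ifi47, outside the 10, was higher than Irgm2 and Igtp in every library. Iigp1, the best studied effector, had 4.79, 3.27 and 3.20 TPM, below the reference in each library by less than the limit for a call (log2 -0.81 ± 0.17; limma adjusted p = 0.000473). Tgtp1 had 0.280, 0.230 and 0.180 TPM from 35, 37 and 37 expected counts and was the only gene of the 10 called below (log2 -4.34 ± 0.14; limma adjusted p = 1.66e-05). That value rests on how reads were split between Tgtp1 and Tgtp2, whose coding sequences differ at 4 of 1248 bases. Of the 31-base words in Tgtp1 transcripts, 83.2% also occur in Tgtp2, which was assigned 12.6, 6.14 and 4.63 TPM from 1934, 1470 and 1381 counts. Tgtp2 alone was thus higher than Igtp (12.2 TPM) in replicate 1 and lower than it in replicates 2 and 3. With both summed the level was 0.17 log2 units above the reference and the call was gone (limma adjusted p = 0.513), a setting chosen after seeing the data. In the second quantification Tgtp1 had 0.439, 0.297 and 0.226 TPM.

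Summed over genes, the 5 GBPs reached 206.7, 133.3 and 107.0 TPM and the 5 IRGs 84.9, 52.1 and 42.6 TPM. In the order of mean levels, Gbp5, Gbp2, Irgm1, Gbp3, Gbp7, Irgm2, Igtp, Gbp9, Iigp1 and Tgtp1, 7 of 9 neighbouring pairs kept their direction in all 3 libraries with a mean difference larger than its SD. Gbp2 over Irgm1 (log2 0.06 ± 0.09) and Igtp over Gbp9 (log2 -0.02 ± 0.21) did not differ beyond their spread. The widest step between neighbours was Iigp1 over Tgtp1 (log2 3.53 ± 0.17) and the next was Gbp9 over Iigp1 (log2 1.18 ± 0.08). The widest step rests on how reads were split between Tgtp1 and Tgtp2. With these 2 summed, Tgtp1 was at 0.17 and Iigp1 at -0.81 log2 units from the reference, the reverse order. A two-sided exact sign-flip permutation test gave p = 0.25 for all 7 pairs, the smallest value that 3 libraries allow. Any pair with the same direction in all 3 libraries gets this value, so it adds nothing to the choice of the 7. The order was also set from these same values.

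The 10 genes lie in clusters with their paralogues. Gbp5 (chr3:142493978-142522344), Gbp7 (chr3:142530342-142550149), Gbp3 (chr3:142560026-142573209) and Gbp2 (chr3:142620602-142638008) follow each other on the plus strand of chromosome 3 in GENCODE M21 (mm10). Gbp2b, between Gbp3 and Gbp2, was at 0.03, 0.02 and 0.05 TPM while its neighbours reached 11.2 TPM or more in every library. The coding sequences of Gbp2 and Gbp2b are 82.5% identical over 1770 aligned bases. Gbp3 and Gbp7 are 78.5% identical in coding sequence and share 3.26% of the 31-base words of Gbp7. A processed pseudogene within Gbp7, Gm43802, holds 10.8% of those words and was assigned 6.02, 5.79 and 2.78 TPM, so the level of Gbp7 depends on that split.

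Gbp9 lies in the chromosome 5 cluster (chr5:105077630-105139539, minus strand), inside the annotated span of Gbp8 and overlapping Gbp4. Its closest expressed relative there was Gbp6, with 20.0, 13.5 and 10.3 TPM, which was called above the reference (log2 1.09; limma adjusted p = 0.00131). Gbp8 had 4.41, 2.93 and 2.83 TPM, and Gbp4, at 1.69, 1.47 and 0.920 TPM, was called below. Gbp10 and Gbp11 were under 0.1 TPM. Of the 31-base words of Gbp9, 9.11% occur in Gbp8 and 8.70% in Gbp6. The deposited posterior SD of its count, a measure of uncertainty in assigning reads, was small. It was 0.46, 0.60 and 0.29 on 2656, 3188 and 3436 counts in replicates 1, 2 and 3.

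Irgm1 (chr11:48861968-48871683) and Tgtp1 (chr11:48985327-48994172) stand on the minus strand of chromosome 11 among other IRGs, and Igtp (chr11:58199556-58207591) and Irgm2 (chr11:58199618-58222782) overlap by 7974 bases on the plus strand farther along. Irgm2 and Igtp share words, 9.16% of those of Irgm2 and 15.9% of those of Igtp. Ifi47, an IRG of the Tgtp1 cluster, had 31.6, 15.2 and 12.3 TPM and was the only IRG besides Irgm1 called above (log2 1.46; limma adjusted p = 0.00238). Next came 9930111J21Rik2, Gm5431 and Gm12250 with means of 11.3, 10.5 and 10.2 TPM, and 9930111J21Rik1 with 7.40 TPM. Tgtp1 also overlaps Gm12185 on its own strand and Olfr56 on the other, and these were at most 0.110 and 0.450 TPM. Gm12185 and the pseudogene Gm12187 were under 0.1 TPM on average.

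Iigp1 belongs to the chromosome 18 cluster. Its relative Gm4951, with a coding sequence 88.0% identical over 1218 aligned bases, had a mean of 1.71 TPM and F830016B08Rik 0.427 TPM, both called below, and Gm4841 was under 0.1 TPM. On chromosome 7, Irgq had a mean of 7.62 TPM and Irgc1 was under 0.1 TPM. In all, 19 of 20 listed paralogues were matched, all but Iigp1b. Of these, 2 were above, 3 below, 7 neither and 7 under the minimum for the test. Over all genes tested, 20.5% were above and 50.7% below, beside which the counts for the 12 tested paralogues stand.

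**Figure D3:**
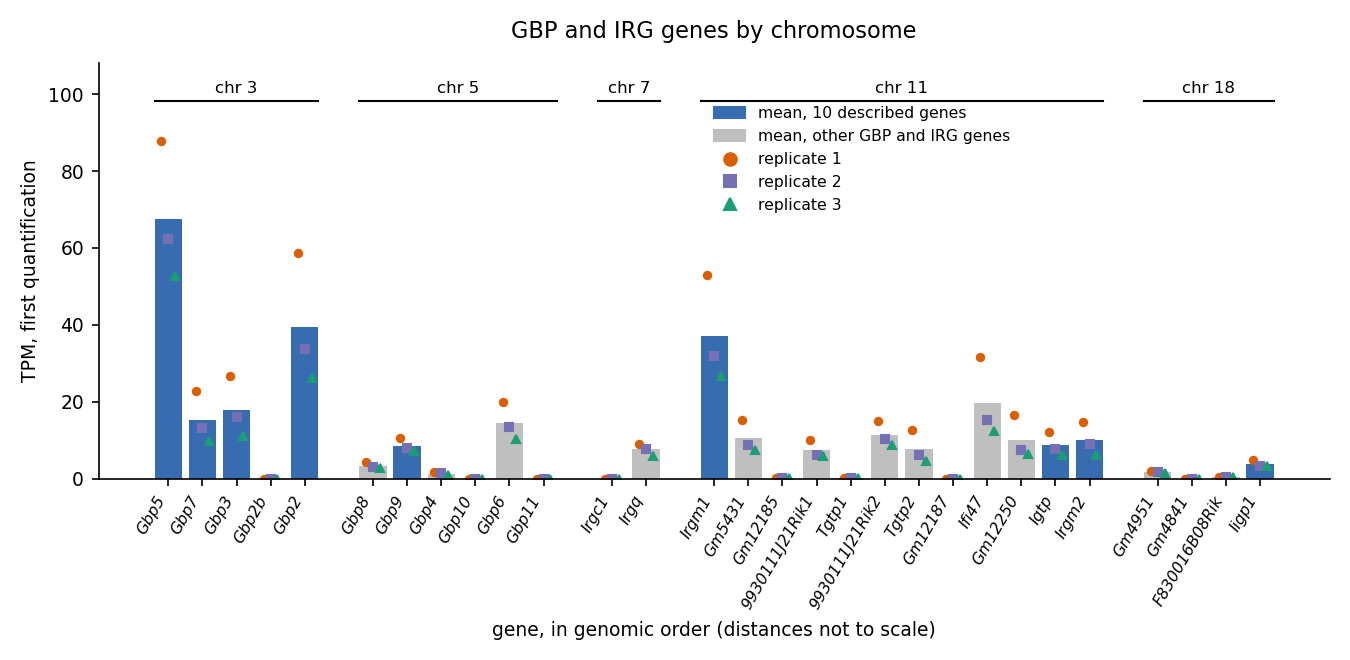
TPM of GBP and IRG genes in genomic order by chromosome, distances not to scale; bars are means of 3 libraries (blue for the 10 described genes, grey for paralogues) and points are libraries. High and near-zero genes stand side by side, as Gbp3, Gbp2b and Gbp2 on chromosome 3 do.

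The libraries differed in how much of these genes they held, and in the same order for each. After TMM scaling all 10 were highest in replicate 1 and lowest in replicate 3, an order that 24.3% of the 12339 genes tested had (no library under 10 counts). All 10 kept it in TPM of either quantification, with median-of-ratios size factors and without any scaling factor. The fold between replicates 1 and 3 ran from 1.26 (Gbp9) to 1.99 (Gbp3). The median SD of log2 CPM was 0.37 over the 10 genes and 0.12 over all genes tested, and the SDs of the 10 lay between the 65.8th percentile (Gbp9) and the 93.7th (Gbp3) of those genes.

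A gene varied beyond what genes of its abundance do where its counts departed from the trended dispersion (edgeR goodness of fit, Benjamini-Hochberg adjusted p under 0.05). This held for 5 of the 10, beside 2.34% of the 12339 genes. In log2 CPM, Gbp3 had 6.75, 6.30 and 5.76 in replicates 1, 2 and 3 (edgeR adjusted p = 0.000444) and Gbp7 had 7.51, 7.04 and 6.57 (edgeR adjusted p = 0.000357). Gbp2 had 7.82, 7.29 and 6.90 (edgeR adjusted p = 0.00103). Among regulators, Irgm2 had 6.32, 5.89 and 5.35 (edgeR adjusted p = 0.00324) and Irgm1 had 7.41, 6.95 and 6.68 (edgeR adjusted p = 0.0178). In each of these 5 genes replicate 2 lay between the others. The count of 5 was 0 without replicate 1, 4 without replicate 2 and 0 without replicate 3. Irgm1 was the gene lost without replicate 2 (edgeR adjusted p = 0.183), and also with no minimum count (edgeR adjusted p = 0.117).

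Gbp5, the most abundant, spread less, with 8.76, 8.54 and 8.31 log2 CPM, and Gbp9, Igtp, Iigp1 and Tgtp1 also did not depart from the trend (edgeR adjusted p = 0.216 for Igtp and 1 for the other 4). Tgtp1 and Tgtp2 summed did, with an SD of 0.60 (edgeR adjusted p = 0.000148). The log2 CPM values of Gbp5 count all its transcripts. Its coding transcript alone had 74.1, 51.6 and 37.0 TPM, beside 87.7, 62.3 and 52.7 TPM for the whole gene. Of 13 paralogues with enough counts, 3 departed from the trend (Ifi47, Tgtp2 and Gm12250), beside 2.34% of all genes tested. The same order of libraries was held by 11 of the 13, beside 24.3% of all genes tested. Ifi47 had 2720, 2104 and 2057 expected counts, the fewest in replicate 3, the most deeply sequenced library.

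Other RNAs moved between the same libraries. The order of the 10 genes, replicate 1 highest and replicate 3 lowest, was held by 24.3% of all genes tested. It was held by 6 of 11 transcription factors, 4 of 6 genes listed as other large GTPases and 7 of 15 conjugation and targeting genes. So did 2 of 8 interferon ligands, receptors and kinases, 2 of 8 inflammasome and DNA-sensing genes and 1 of 5 prenylation genes. The nuclear noncoding RNAs Malat1 and Neat1, added after seeing the data, summed to 141.1, 359.4 and 980.2 TPM, lowest in replicate 1 and highest in replicate 3, the reverse of the 10 genes. Their part in the spread of the GTPase genes was not tested. Interferon-beta (Ifnb1), named after its values were seen, had 46.5, 17.6 and 28.3 TPM, highest in replicate 1 but lowest in replicate 2, and was the 1 of 8 tested interferon ligands, receptors and kinases that departed from the trend (edgeR adjusted p = 0.00368). Of 6 matched genes of the list of other large GTPases, 1 departed from it, Mx2, with 15.4, 7.29 and 7.92 TPM (edgeR adjusted p = 0.00687). None of 11 listed transcription factors, 15 conjugation and targeting genes, 8 inflammasome and DNA-sensing genes or 5 prenylation genes departed from the trend. Over all genes tested 2.34% did, so a count of 0 or 1 in lists this short sets none of them apart.

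**Figure D4:**
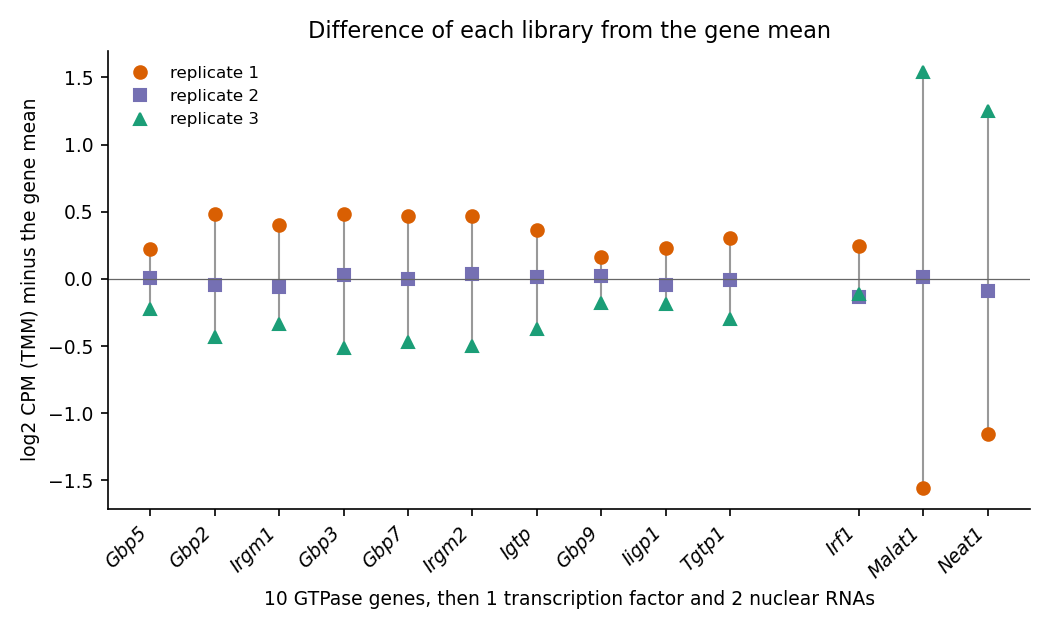
Each library's log2 CPM (TMM scaling) minus the mean of the gene, for the 10 GTPase genes, the transcription factor Irf1 and the nuclear RNAs Malat1 and Neat1; lines join the lowest and highest library. Replicate 1 is on top and replicate 3 at the bottom in all 10 GTPase genes, and the reverse holds for both nuclear RNAs.

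Only 6 of the 10 genes have annotated transcripts that are not protein-coding; Gbp7, Irgm2, Igtp and Tgtp1 have none, which fixes their share at 0. Transcripts of other classes took 20.9 ± 7.83% of the TPM of Gbp5, 9.38 ± 4.45% of that of Iigp1 and 3.57 ± 0.68% of that of Gbp9 (SD, n = 3). Gbp2, Gbp3 and Irgm1 had means of 0.19%, 0.10% and 0.23%. These shares depend on the quantification and the unit. In the second quantification Gbp5 had 29.1%, Gbp9 5.45%, Gbp3 1.45%, Gbp2 0.51% and Irgm1 0.41%, and as a share of counts Iigp1 had 4.70%, Gbp2 0.05% and Irgm1 0.43%. Over 7257 genes that averaged 1 TPM or more and have both kinds of transcript, the median share was 2.59%, 3.56% and 5.68% in replicates 1, 2 and 3.

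In Gbp5 the coding transcript had 74.1, 51.6 and 37.0 TPM, highest in replicate 1, whereas the transcript annotated as retaining an intron had 1.73, 2.47 and 6.12 TPM, highest in replicate 3. Transcripts annotated as targets of nonsense-mediated decay had 11.8, 8.30 and 9.60 TPM. The retained-intron transcript thus took 1.97%, 3.96% and 11.6% of Gbp5, and 2.26%, 4.36% and 11.96% in the second quantification. A processed transcript of Gbp5 took 5.90%, 7.97% and 10.2% in the second quantification and was listed at 0 in the first. Replicate 3, with the largest share, is also the library with the most Malat1 and Neat1, and a link between these was not tested. In Iigp1 the noncoding share was 5.21%, 8.87% and 14.1%, from 738, 805 and 904 counts in all.

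**Figure D5:**
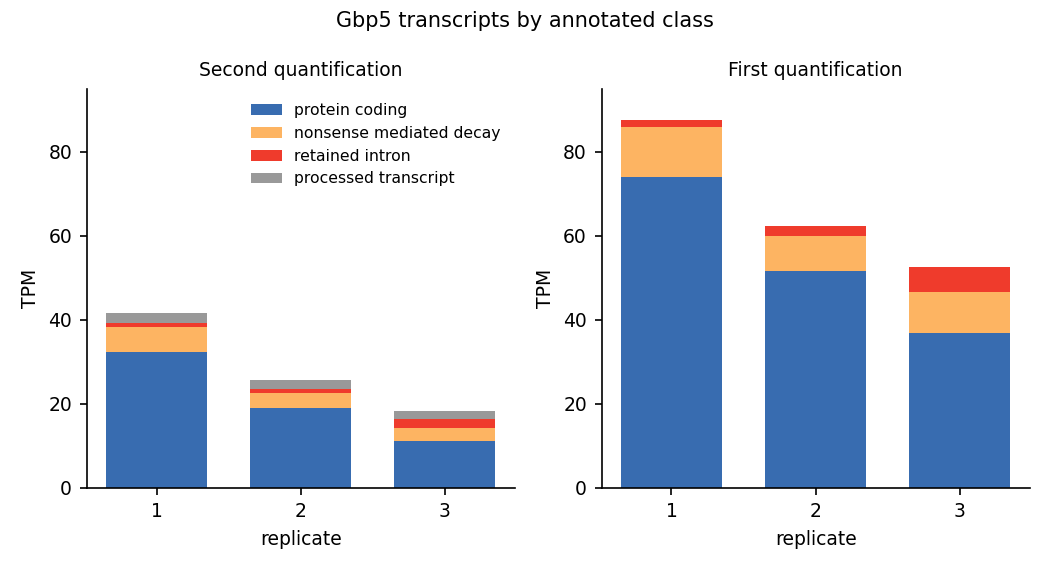
Gbp5 TPM by annotated transcript class in each library, second quantification on the left and first on the right. The retained-intron part (red) is largest in replicate 3 in both, 11.96% and 11.6% of the gene, although the whole of Gbp5 is smallest there.

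The deposited quantifications were compared after taking off the shift of the median gene. That gene differed by log2 -1.02, -1.22 and -1.52 (second over first) in replicates 1, 2 and 3. Relative to that shift, 9 of the 10 genes could be tested, all but Tgtp1, and their mean differences ran from -0.14 (Irgm1) to 0.13 (Gbp9). None reached 1 log2 unit, so none was called (limma, Benjamini-Hochberg adjustment), against 2.76% of 9486 genes called higher and 1.84% called lower. Adjusted p was under 0.05 for 7 of the 9 with these small differences, from 0.00967 (Irgm1) to 0.0432 (Iigp1), and was 0.322 for Gbp3 and 0.176 for Gbp5. Tgtp1 was under the minimum of 1 TPM, and with the minimum at 0.1 TPM it was the 1 gene of the 10 called higher in the second quantification.

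The deposited credibility intervals of TPM describe how reads could be assigned within a library. They did not overlap between libraries in 26 of 30 pairs, and 8 of the 10 genes had no overlapping pair. This was not counted over all genes, so it cannot be read as a trait of the 10. TPM was not scaled between libraries here, and the reference median itself was 7.38, 6.07 and 6.21 TPM in replicates 1, 2 and 3. Iigp1 overlapped between replicates 2 and 3 (3.04 to 3.503 and 2.96 to 3.41 TPM). Tgtp1 overlapped in all 3 pairs, with an interval of 0.208 to 0.788 TPM in replicate 1. The TPM of Gbp5 in replicate 1, 87.7, lay just outside its own interval of 84.5 to 87.3 TPM.

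RNAs of the pathway that controls the GTPase genes were measured in the same libraries. Of 9 interferon ligands, receptors and kinases, 8 could be tested, of which 7 were above the reference and none below. Over all genes tested, 20.5% were above and 50.7% below, and these shares also stand beside the counts of the lists that follow. The receptor subunits Ifnar2 and Ifngr1 had 52.4 ± 3.67 and 49.1 ± 6.99 TPM and the kinase Jak1 38.3 ± 3.93 TPM. The kinase Tyk2 had 8.21 ± 0.99 TPM. Ifng, which encodes interferon-gamma, a strong inducer of this family, was under the minimum for the test and had 0 counts in each library, which allows up to 0.0891, 0.0628 and 0.0506 CPM (counts scaled to library size; 3 counts each). Of 11 transcription factors 8 were above and 1 below. Irf1 had 147.2 ± 37.7 TPM and Nfkb1 59.8 ± 2.97 TPM. At the other end Irf3 had 10.6 ± 1.88 TPM and Batf2, called below, 2.39 ± 0.96 TPM.

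Of 7 genes listed as other large inducible GTPases, 6 were matched and 4 of these were above. Rnf213, on this list, encodes an ATPase and ubiquitin ligase and not a GTPase. Gm8995 is annotated as a pseudogene and Mx2 as a polymorphic pseudogene. Rnf213, Gm4070 and Gm8995 had means of 77.97, 38.0 and 37.9 TPM, and Mx1 and Mx2 had 12.8 and 10.2 TPM. Among 15 genes of ubiquitin-like conjugation and vacuole targeting, the machinery that directs GBPs and IRGs to vacuoles, 8 were above and 1 below. Lgals3, Sqstm1 and Gabarap had means of 1242, 474.4 and 208.1 TPM, Traf6 had 5.82 TPM and Atg16l1, called below, 2.22 TPM.

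Of 8 genes of the noncanonical inflammasome and DNA sensing, which act downstream of GBPs, 6 were above and none below. Nlrp3, Ninj1 and Casp4 (caspase-11) had means of 136.2, 120.2 and 29.2 TPM, and Pycard and Il18 had 10.8 and 10.2 TPM. Prenylation adds the lipid anchor of Gbp2 and Gbp5. Of 5 genes listed for prenylation or the processing that follows it, none was above and 1 was below. Which of the 5 act on Gbp2 and Gbp5 was not tested. Fnta, Pggt1b and Rce1 had 6.03, 4.86 and 3.83 TPM, Icmt 3.25 TPM and Fntb, called below, 0.857 TPM.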

How the data were processed

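Per the file headers and the text files that accompany them, alignment was to mm10 with GENCODE M21, and the authors deposited, for each library, expected counts, TPM and FPKM per gene and transcript (the first quantification), with bounds of a TPM credibility interval (its level was not stated). They also deposited estimated counts and TPM per transcript derived straight from the reads (the second quantification). The sources used here name neither the tools nor the strand setting, so overlapping genes on opposite strands are uncertain. Members, lists and the rule for named genes (all 10 members, every paralogue, and the 3 highest and 2 lowest of each other list) were chosen with earlier results of these data known. A gene that this rule would name among the transcription factors is not reported here.

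For levels, limma 3.58.1 (moderated test of 1 sample against 0) was run on log2(TPM + 0.1) minus the reference median, for genes averaging 0.1 TPM or more; with this pseudocount fold changes of low genes are understated. Expected counts were rounded, required to be at least 10 in every library and scaled by TMM in edgeR 4.0.16, with a prior count of 2. Quantifications were compared by limma on median-centred log2 ratios, for means of at least 1 TPM. Noncoding shares are the TPM of transcripts not annotated as protein-coding over the TPM of the gene, given as values with no test. DESeq2 1.42.0 size factors and FPKM were used in alternatives only. The scripts were tested on simulated data. Motifs, shared 31-base words and alignments (Biopython 1.88) came from RefSeq promoters and GENCODE M21 transcripts; identity is over aligned bases without gaps. Nothing says that the replicates came from separate animals, so p-values measure only the spread between these samples, which may be technical. Intervals treat reads as independent molecules, which amplified reads are not.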

Additional observations from a re-analysis of the deposited data

How the results depend on the processing

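The count of genes above the reference stayed at 5 with a pseudocount of 1 TPM, no filter, FPKM and Tgtp1 and Tgtp2 summed, and ran from 4 to 5 when 1 replicate was left out. It was 3 when the reference took only genes of 5 TPM or more, and 3 in the second quantification, where Gbp3 and Gbp7 dropped out, and the count below was 2 in both, with Iigp1 added. Without the filter all 10 genes had an adjusted p under 0.05 (limma), so the count then rests on the log2 limit alone. FPKM rescales TPM by 1 factor per library, so that setting changes mainly the pseudocount and the cutoff for the reference. The count below was 0 with Tgtp1 and Tgtp2 summed, where the level was 0.168 log2 units in place of -4.34, by construction, since the copy adds its reads. The number of genes beyond the trended dispersion was 5 with DESeq2 size factors, 4 with no minimum count (Irgm1 dropped out) and from 0 to 4 when 1 replicate was left out. Without centring on the median gene, all 9 genes tested were called lower in the second quantification, and Gbp3 (-1.206), Gbp7 (-1.158), Gbp9 (-1.123) and Iigp1 (-1.131) changed sign, as the shift of the median gene sets. With genes of at least 0.1 TPM tested, 1 gene, Tgtp1, was called higher. Igtp over Gbp9 ran from -0.13 to 0.074 log2 units when 1 replicate was left out, changing sign without replicate 3. Tgtp1 had the fewest counts of the 10 genes, 35 to 37 in each library. No paired analysis was possible because the labels number the replicates of 1 group only.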
